A study of Homo sapiens with 2 samples.

Results

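The HOX cluster genes are the 39 protein-coding genes, of 19794 coding genes counted, whose symbol begins with HOXA, HOXB, HOXC or HOXD followed by a number in the GENCODE annotation of hg19. They were taken by name alone, with no measured value in the rule. There were 11 HOXA genes at chr7:27131612-27240710, 10 HOXB genes at chr17:46604888-46807112, 9 HOXC genes at chr12:54331615-54450814 and 9 HOXD genes at chr2:176956449-177056635, where each interval runs from the lowest to the highest base of the member genes with 1 kb added on each side. HOX genes encode homeodomain transcription factors that set the identity of tissues along the head-to-tail axis of the embryo. Within each cluster the genes lie in the order in which they are used along that axis, from low-numbered anterior to high-numbered posterior genes, and genes with the same number in different clusters are paralogs descended from 1 ancestral gene. Polycomb complexes keep HOX clusters silent and Trithorax complexes keep them active. Normal brain tissue in front of the hindbrain uses few HOX genes, whereas glioblastomas can express several of them.

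Occupancy of NRF-1, a transcription factor known for its sites in the CpG-rich promoters of respiratory chain genes, was measured in U251, an established human glioblastoma line. Cells received a control oligonucleotide (siControl) or the siRNA siAATF #1, which depletes the transcriptional cofactor AATF, by lipid transfection, and chromatin was immunoprecipitated with an anti-NRF-1 antibody before adapters were inserted by Tn5 transposase (ChIPmentation). The experiment asked whether loss of AATF changes where NRF-1 sits. There was 1 peak list for each condition, with 18014 peaks in siControl and 18454 in siAATF, so no value has a replicate error, no test between the conditions was possible, and a difference between the lists compares those lists and not the conditions.

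A promoter here is 1 kb on either side of any protein-coding transcript start of the gene, and a gene has a promoter peak when at least 1 base of a peak lies in it. Peak height is the fold enrichment over local background deposited with the lists, given also as a percentile rank within its own list from 0 (weakest) to 100 (strongest), and significance is the deposited −log10 q. Read depth was not given by the lists and is unknown. Intervals in parentheses are exact 95% intervals and cover counting error over genes or peaks only.

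NRF-1 promoter peaks were found at about every other HOX gene, with a median rank below the middle of each list. In siControl, 21 of 39 HOX genes had a promoter peak, 53.8% (37.2% to 69.9%), against 61.1% of all coding genes. In siAATF 20 of 39 had a peak, 51.3% (34.8% to 67.6%), against 60.7%. The same 20 genes had a peak in both lists, whereas 59.5% of all coding genes did, and the share of coding genes lies within each of these intervals. HOXC6 was the single HOX gene with a promoter peak in siControl alone, where 1.62% of coding genes stood, and 0 HOX genes had a promoter peak in siAATF alone, against 1.17%.

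At a −log10 q of at least 5 the count of HOX genes was 14 (35.9%) in siControl and 13 (33.3%) in siAATF, while the share of coding genes was 51.5% in siControl and 51.5% in siAATF. When only the start of the Ensembl canonical transcript was used, 15 HOX genes had a peak in each list, 38.5% (23.4% to 55.4%), against 59.1% of coding genes in siControl and 58.9% in siAATF. The peaks of 6 genes in siControl, HOXA3, HOXB3, HOXB8, HOXC4, HOXC6 and HOXD3, therefore touched only the 1 kb promoter of a coding start other than the canonical. Of these peaks, only that of HOXA3 spanned a coding start of its gene. Kept to the 10000 strongest peaks of each list by fold enrichment, the count was 10 HOX genes in siControl and 8 in siAATF, against 44.2% and 43.6% of coding genes.

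Peaks were spread over all 4 clusters. In siControl 6 of 11 HOXA genes, 4 of 10 HOXB genes, 6 of 9 HOXC genes and 5 of 9 HOXD genes had a promoter peak, and the siAATF counts were the same except for HOXC, with 5 of 9. By place in the body axis, 5 of 8 anterior genes (numbers 1 to 3), 6 of 15 central genes (numbers 4 to 8) and 10 of 16 posterior genes (numbers 9 to 13) had a peak in siControl. In siAATF these counts were 5, 5 and 10. All 3 genes of paralog group 3 had a peak in each list, and none of the 2 genes each of groups 2, 7 and 12 had one in either list. With so few genes in a group the intervals of all these shares overlap.

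**Figure D1:**
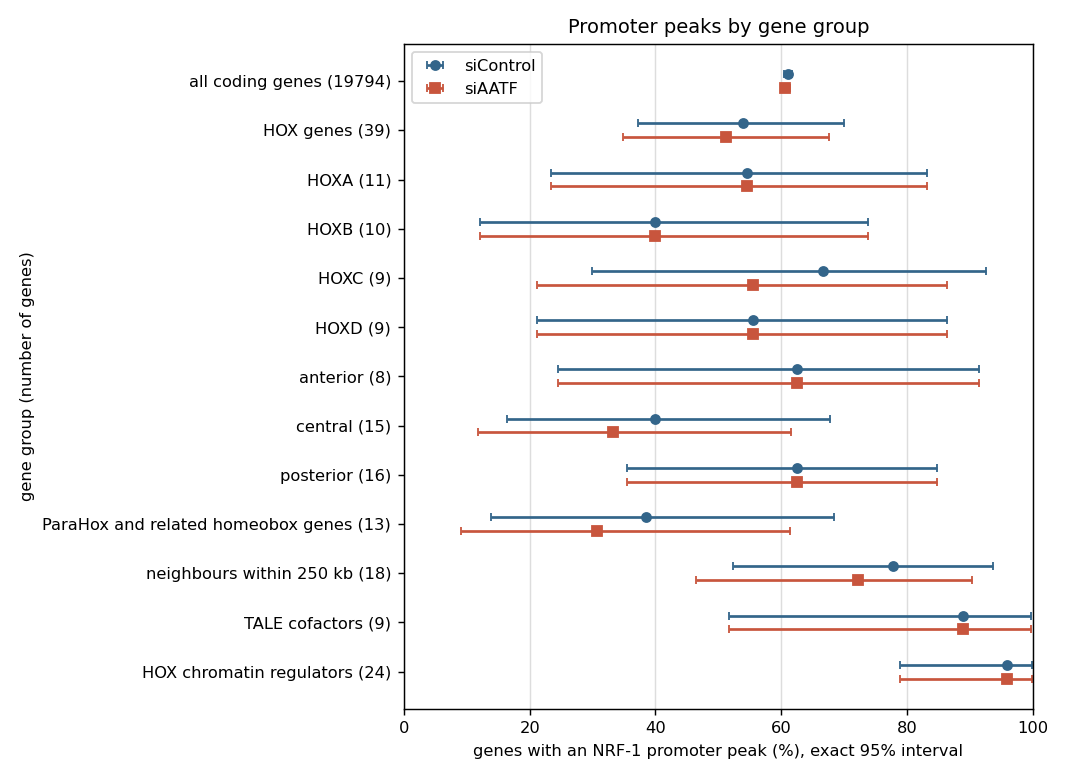
Share of genes with an NRF-1 promoter peak (x axis, percent) in siControl (circles) and siAATF (squares), for all coding genes, the 39 HOX genes, their clusters, their axial regions and 4 lists of related or neighbouring genes (y axis, with the number of genes); bars are exact 95% intervals. The HOX genes sit at 53.8% and 51.3%, the TALE cofactors at 88.9% and the HOX chromatin regulators at 95.8%.

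Among the anterior genes, which pattern the hindbrain and neck, HOXD1 had a promoter peak in both lists. The HOXD1 peak spanned the start of the gene, with a fold enrichment of 6.90 (rank 65.5) in siControl and 7.17 (rank 74.3) in siAATF. It therefore stood in the upper part of each list, and it also spanned a start of the noncoding gene HAGLR.

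The 3 group 3 genes had peaks in the promoters of starts far from the canonical. HOXB3 had a peak of fold 6.34 (rank 57.7) in siControl and 4.50 (rank 30.1) in siAATF, centred 34450 bp downstream of its canonical start in siControl. HOXA3 had a narrow peak of 329 bp over an alternative start, centred 38895 bp downstream of the canonical start, with fold 5.17 (rank 40.2) and 4.05 (rank 20.3) in siControl and siAATF. For both genes the siAATF peak stood lower in its list than the siControl peak did.

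The HOXD3 promoter peak, centred at −19198 bp from the canonical start (negative is upstream), was among the lowest of either list by fold, at 3.09 (rank 2.17) in siControl and 3.10 (rank 2.35) in siAATF. By −log10 q, 4.76 and 5.02, it stood higher, at rank 30.9 in siControl and 33.3 in siAATF. HOXA2, HOXB1 and HOXB2, which act in hindbrain segments and cranial neural crest, had no promoter peak in either list.

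The central genes, which pattern the neck and trunk, held the most significant HOX peak and 9 of the 18 genes with no promoter peak in either list. The HOXC4 peak at chr12:54411208-54412296 had a −log10 q of 75.5 in siControl and 64.2 in siAATF (rank 94.99 and 93.46 by q), and it was the only HOX promoter peak above rank 90 by q in either list. Its fold enrichment was 7.63 (rank 75.1) in siControl and 6.78 (rank 68.8) in siAATF. The peak was 1089 bp wide in siControl, lay inside the long HOXC4 transcript with its midpoint 1037 bp downstream of the upstream coding start, and spanned no coding start of the gene.

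HOXD8, a gene of the trunk, had the strongest HOX promoter peak by fold in both lists. Its peak at chr2:176994742-176995643 had a fold enrichment of 8.44 (rank 85.6, −log10 q 43.7) in siControl and 8.58 (rank 92.2, −log10 q 42.7) in siAATF, and it spanned a coding start. HOXA4 had a peak of fold 5.76 (rank 49.1) in siControl and 4.57 (rank 31.3) in siAATF, and its width went from 567 bp to 267 bp between the lists.

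The remaining central peaks were weak. HOXB8 had fold 4.38 (rank 25.6) in siControl and 4.79 (rank 36.0) in siAATF in the promoter of a start other than the canonical. HOXC5 had fold 4.44 (rank 26.8) and 3.74 (rank 13), and its peak also held the start of the microRNA gene MIR615. HOXC6 had a peak of 362 bp at chr12:54388313-54388674 in siControl alone, with fold 3.10 (rank 2.21) and a −log10 q of 1.49, and this peak lies in the promoter window of HOXC9 as well. The central genes without a promoter peak were HOXA5, HOXA6, HOXA7, HOXB4, HOXB5, HOXB6, HOXB7, HOXC8 and HOXD4.

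Among the posterior genes, which pattern the lower trunk, limbs and urogenital tract, HOXC13 and HOXA13 stood highest by fold. HOXC13, needed for hair and nails, had a peak spanning its start, with fold 8.34 (rank 84.6, −log10 q 52.5) in siControl and 7.85 (rank 83.9, −log10 q 49.4) in siAATF. HOXA13, needed for hands, feet and the genital tract, had fold 8.23 (rank 83.1) in siControl and 8.27 (rank 89.1) in siAATF. The HOXA13 peak also spanned a start of HOTTIP, the long noncoding RNA gene at the posterior end of the HOXA cluster, and a peak that spans both starts, here or at HOXD1, cannot be given to 1 of the genes.

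HOXB13, a prostate lineage factor, had a peak across its start of fold 5.13 (rank 39.5) in siControl and 6.32 (rank 61.8) in siAATF. HOXD13, the fourth gene of the group, had no promoter peak in either list. HOXD11, a forearm and kidney gene, had fold 6.45 (rank 59.3) in siControl and 6.14 (rank 59.0) in siAATF, while its −log10 q was 23.4 and 29.3. HOXA11, its paralog that also acts in the uterus, had a peak of 200 bp with fold 3.49 (rank 6.72) and 3.95 (rank 17.6), over a start of HOXA11-AS and not of HOXA11.

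HOXA10, another gene of the uterus, had fold 6.24 (rank 56.1) in siControl and 5.24 (rank 44.4) in siAATF, from a peak centred 705 bp downstream of the start in siControl. Its paralog HOXC10 had 2 promoter peaks in each list, the stronger at rank 25 in siControl and 29.2 in siAATF and the weaker at rank 8.91 and 15.6. In siControl the midpoint of the stronger lay 1104 bp from the nearest HOXC10 coding start, and 405 bp from that of another coding gene. HOXB9 went from fold 4.61 (rank 30.1) in siControl to 3.98 (rank 18.5) in siAATF, HOXD9 from 4.42 (rank 26.4) to 3.59 (rank 9.48), and HOXC9 from 4.75 (rank 32.6) to 4.72 (rank 34.5). The HOXC9 peak also held a start of HOXC-AS1 in both lists, and the weaker HOXC10 peak held one of HOXC-AS3 in siAATF. HOXA9, a gene of blood progenitors and leukaemias, had no promoter peak in either list, and neither had HOXC11, HOXC12, HOXD10 and HOXD12. By fold, in both lists the high posterior peaks were those of HOXC13 and HOXA13, and those of group 9 lay in the lower part. By −log10 q, HOXA13 stood at rank 74.05 in siControl and 76.14 in siAATF, and HOXD11 at 70.86 and 77.17.

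**Figure D2:**
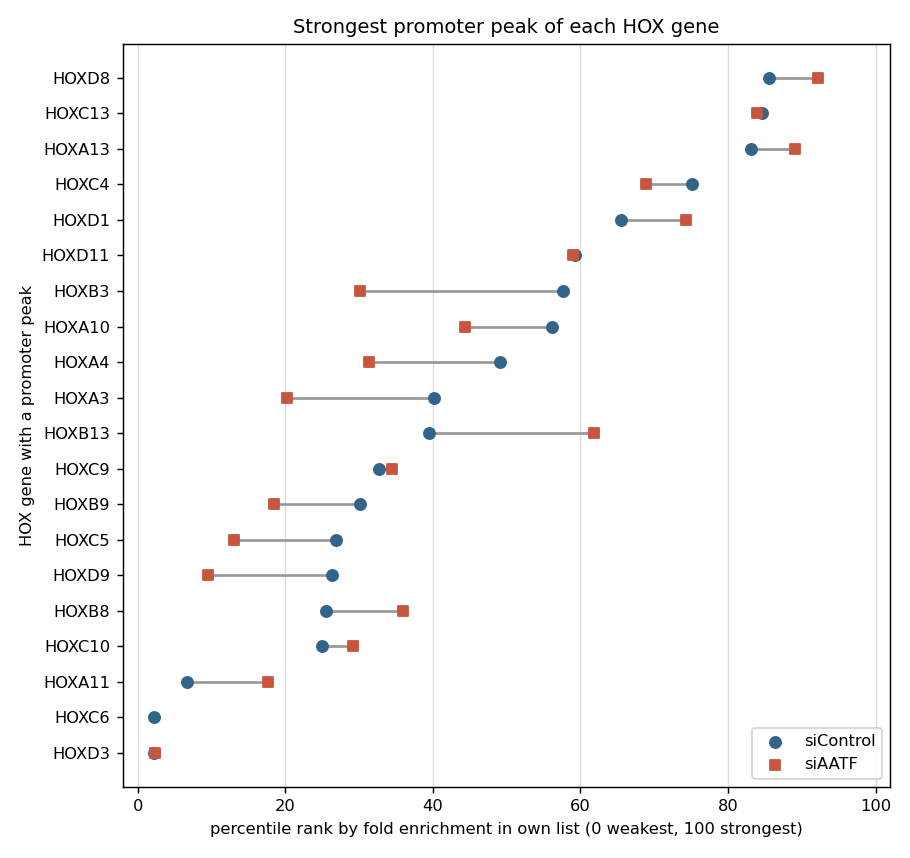
Percentile rank by fold enrichment (x axis) of the strongest promoter peak of 20 of the 21 HOX genes with a promoter peak (y axis), in siControl (circles) and siAATF (squares), joined by a grey line where both lists held a peak. HOXD8, HOXC13 and HOXA13 lie above rank 80 in both lists, HOXD3 near 2 in both, and HOXC6 has a siControl point alone.

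The strongest promoter peak of the HOX genes with a peak ranked lower than that of coding genes in general. The median rank was 40.2 (26.4 to 59.3) over 21 HOX genes against 63.4 over all 12095 coding genes with a peak in siControl. In siAATF it was 35.3 (20.3 to 68.8) over 20 genes against 64.4 over 12006. The interval lies below the median of all coding genes in siControl and takes it in for siAATF. Ranks above 50 were reached by 9 HOX genes (42.9%) in siControl and 8 (40.0%) in siAATF, against 66.1% and 67.3% of coding genes with a peak. Ranks above 90 by −log10 q were reached by 1 HOX gene in each list, HOXC4, against 16.1% and 16.7%. The 39 genes share 4 loci, so these members are not independent of each other.

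**Figure D3:**
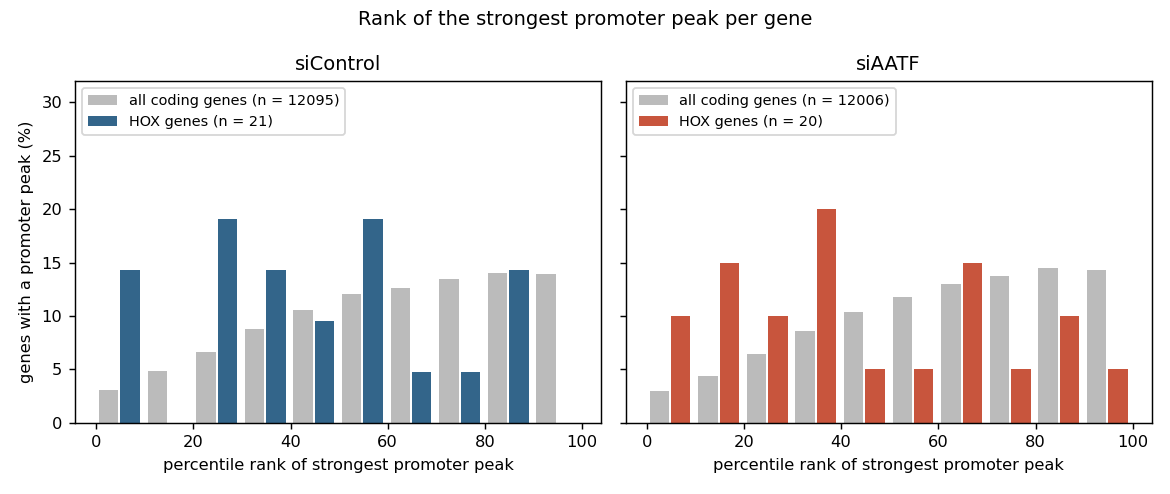
Percent of genes with a promoter peak (y axis) whose strongest promoter peak falls in each 10-point bin of percentile rank by fold enrichment (x axis), for HOX genes (coloured) and all coding genes with a peak (grey), in siControl (left) and siAATF (right). The grey bars rise towards the high ranks, from 3.03% in the lowest bin to 13.9% in the highest in siControl, while the siControl HOX bars do not, with 14.3% in the lowest bin and 0 genes in the highest.

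The place of the peaks relative to the starts was also recorded. The strongest peak spanned a coding start of its gene for 9 of 21 HOX genes (42.9%) in siControl and 10 of 20 in siAATF. Over all coding genes with a peak the share was 91.7% in siControl and 92.8% in siAATF. The median distance from the peak midpoint to the nearest coding start of the gene for HOX genes was 243 bp (siControl) or 195 bp (siAATF), against 84.0 bp in each list for all coding genes. The median width of the HOX peaks was 648 bp against 854 bp in siControl and 686 bp against 866 bp in siAATF. In siControl 13 of the 21 HOX midpoints lay downstream of the nearest coding start and 8 upstream. Of the 39 HOX genes, 20 had only 1 coding start. These comparisons with coding genes were not adjusted for the number of starts or for peak width.

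The base composition of the HOX promoters was not that of coding promoters without NRF-1 peaks. In the 1 kb either side of the canonical start, the 39 HOX genes had a median GC content of 59.4% and a median CpG ratio (observed over expected CpG) of 0.698, against 56.1% and 0.639 for coding genes. The 18 HOX genes with no peak had medians of 59.0% and 0.663, close to the 60.4% and 0.717 of the 21 HOX genes with a peak. Of those 21 genes, 6 had their siControl peak outside the canonical window, so the window measured was not always the one that held the peak. Coding genes with no peak had medians of 51.1% and 0.310, and those with a peak 58.1% and 0.708.

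The NRF-1 recognition core is a palindrome in which the half-site GCGCA is followed by its reverse complement, GCGCATGCGC. It reads the same on both strands, and it was searched with up to 1 mismatch. Over all peaks 17.3% in siControl and 16.8% in siAATF held such a word, and 84.4% and 83.8% of the top 10% of peaks by −log10 q did. A control palindrome of the same bases, CGGCATGCCG, was found with up to 1 mismatch in 4.06% and 3.91% of that top 10%. In the promoter peaks of HOX genes the core with up to 1 mismatch was found at 1 gene in each list, HOXD8 (1 of 21 in siControl and 1 of 20 in siAATF), where 24.4% of coding genes with a promoter peak had it in siControl and 24.6% in siAATF. An exact core and the control palindrome were found in none of the HOX promoter peaks of either list, where the control was held by 4.07% of coding genes with a peak in siControl and 3.92% in siAATF.

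Of the 4 HOX cluster peaks with the highest −log10 q in siControl, 3 are given here by the bases around their best match to the core, since they differ in how much of it they hold. Each stretch is 60 bases of the plus strand of GRCh37, in lower case, with the bases of the word that match the core in capitals. The HOXD8 stretch is chr2:176995271-176995330, and its word lies in coding sequence at chr2:176995296-176995305, with 9 of 10 bases matching and its centre 108 bp from the siControl peak midpoint and 99 bp from the siAATF midpoint. The HOXD3 stretch is chr2:177004530-177004589, and its word lies in an intron at chr2:177004555-177004564, with 9 matching bases, 10 bp from the midpoint of a peak outside any HOX promoter. The HOXC4 stretch is chr12:54411702-54411761, and its word at chr12:54411727-54411736 has 8 matching bases, 20 bp from the midpoint.
HOXD8 promoter: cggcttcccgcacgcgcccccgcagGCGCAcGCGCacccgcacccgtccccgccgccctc
HOXD3 intron: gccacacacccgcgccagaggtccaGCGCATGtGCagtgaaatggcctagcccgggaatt
HOXC4 promoter: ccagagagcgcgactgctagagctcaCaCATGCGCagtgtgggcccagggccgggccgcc

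HOXC4, with the highest −log10 q of the HOX promoters, thus held no word within 1 mismatch, and the word nearest the core lay close to the middle of the peak. With up to 2 mismatches allowed and the word kept within 100 bp of the midpoint, a setting chosen after the data were seen, 8 of 21 HOX genes had a match in siControl, 38.1% (18.1% to 61.6%), and 11 of 20 in siAATF, 55.0% (31.5% to 76.9%). The shares over coding genes with a promoter peak were 41.2% and 41.5%, inside these intervals.

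Words within 1 mismatch of the core were few in number in the clusters, though denser there than over the chromosomes. There were 6 in the 530.7 kb of the 4 clusters, or 1.13 per 100 kb against 0.416 over chromosomes 1 to 22, X and Y. This density rests on few words and was not adjusted for base composition or for coding starts. The HOXD8 and HOXD3 words lay in peaks of both lists, and the other 4, at HOXA3, HOXA10, HOXB2 and between HOXC13 and HOXC12, lay in none. Over the genome 31.6% of 12876 such words lay in a siControl peak and 31.3% in a siAATF peak. Of the 39 canonical promoter windows 2 held the core with up to 1 mismatch (5.13%), those of HOXD8 and HOXA3, against 16.0% of all coding promoters.

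Counted along the DNA rather than by gene, the clusters were dense in peaks. The 4 clusters held 33 siControl peaks, 6.22 per 100 kb, and 31 siAATF peaks, 5.84 per 100 kb, against 0.578 and 0.592 over the chromosomes. Peaks covered 3.85% of the clusters in siControl and 3.75% in siAATF, against 0.414% and 0.425% of the chromosomes and 0.727% of the 250 kb on either side of the clusters in each list. By cluster the siControl coverage was 4.48% for HOXA, 2.96% for HOXB, 4.17% for HOXC and 4.59% for HOXD. The clusters are also dense in coding starts, and this was not adjusted for.

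Of the siControl cluster peaks, 22 lay in a HOX promoter and 11 elsewhere, and of the siAATF peaks, 21 and 10. The peak with the highest fold outside a promoter in siControl lay between HOXD13 and HOXD12, at chr2:176962151-176962742, with fold 7.79 (rank 77.3) in siControl and 6.14 (rank 59.1) in siAATF. The peak around the HOXD3 word, at chr2:177004171-177004968, also overlapped an exon of a HOXD3 transcript and had fold 6.75 (rank 63.5, −log10 q 31.4) in siControl and 6.16 (rank 59.3, −log10 q 27.5) in siAATF. It had the highest −log10 q of the peaks outside HOX promoters in both lists.

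The HOXB cluster held 6 of the 11 siControl peaks outside promoters and 5 of the 10 siAATF peaks. A peak between HOXB8 and HOXB9 at chr17:46696398-46696954 had fold 6.25 (rank 56.2) in siControl and 6.45 (rank 63.7) in siAATF. It lay within the long annotated span of HOXB7 but in no exon of it. The nearest coding start was that of HOXB8, 4022 bp from the siControl midpoint. A peak over the coding sequence of HOXB6 at chr17:46674902-46675846 had fold 6.23 (rank 55.9) and 5.76 (rank 53.0). HOXB6 and HOXB7 had no promoter peak by the 1 kb rule. In the long gap between HOXB9 and HOXB13, siControl alone held a weak peak at chr17:46724047-46724422, fold 3.58 (rank 8.41), over starts of the noncoding genes LINC02086 and LINC03057.

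**Figure D4:**
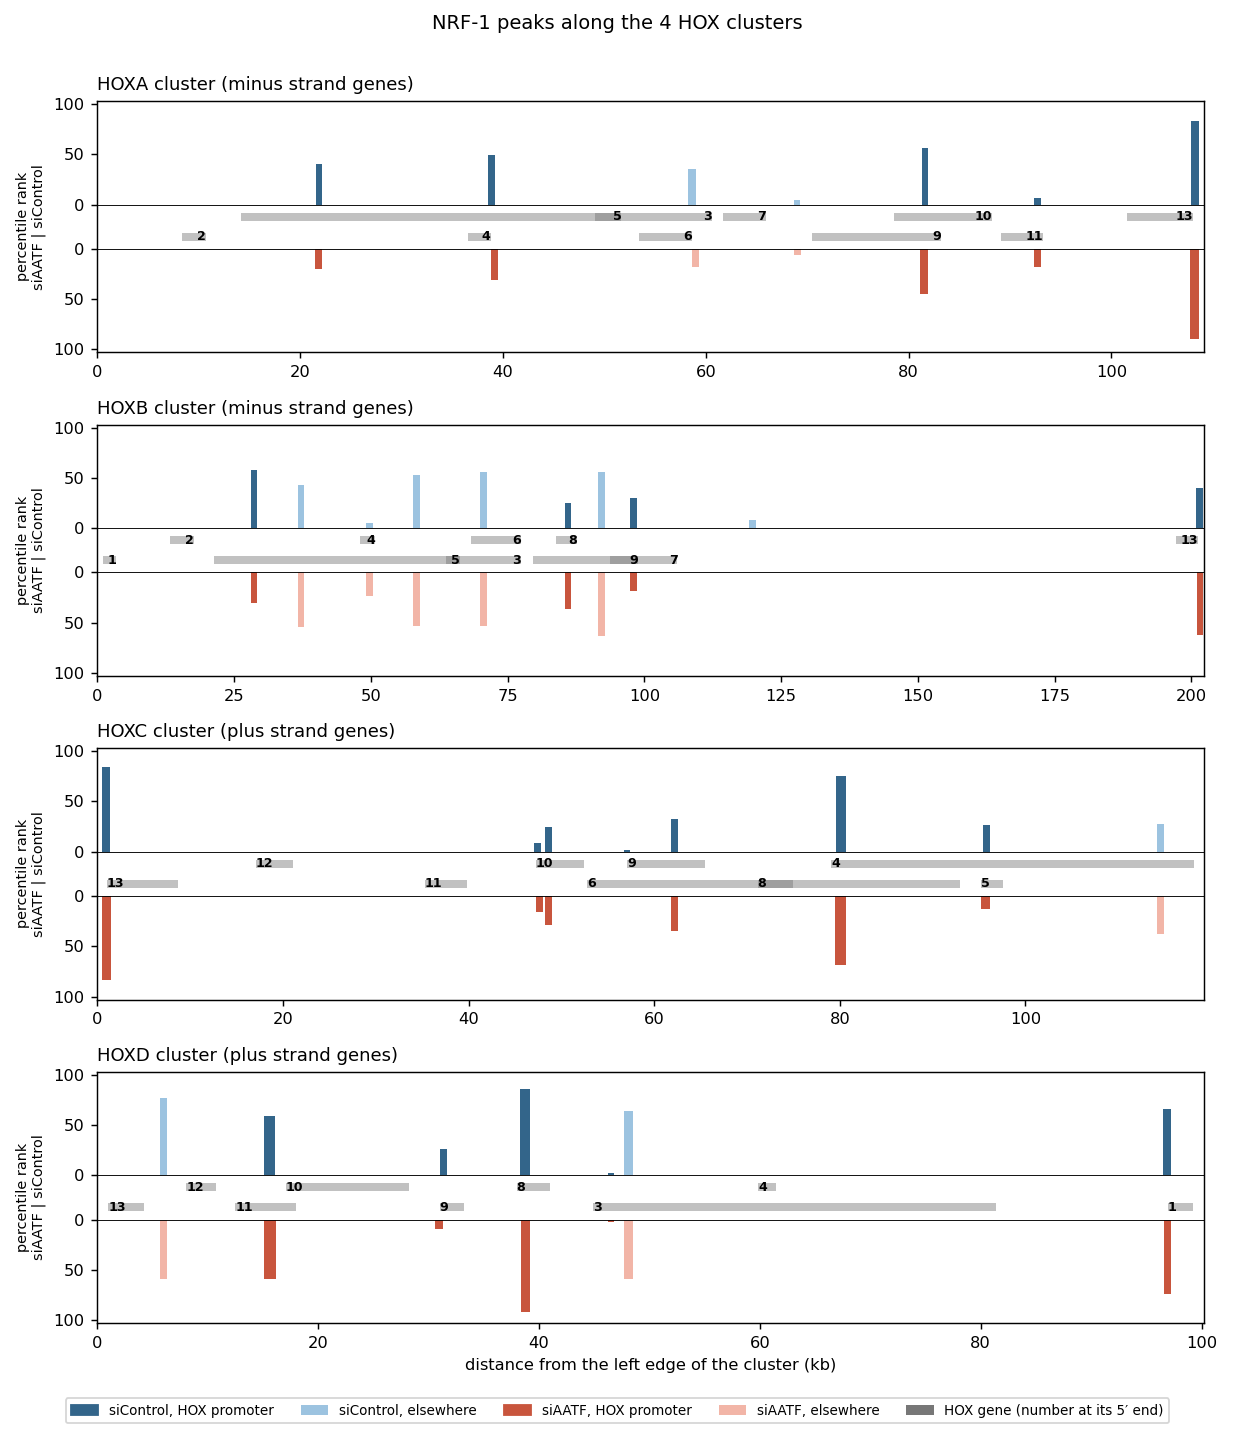
Maps of the 4 HOX clusters, with distance from the left edge of each cluster in kb on the x axis and percentile rank by fold enrichment on the y axis, upward for siControl and downward for siAATF; dark bars are peaks in a HOX promoter, light bars are peaks elsewhere, grey boxes are HOX genes (38 of 39 are drawn), and peaks narrower than a set minimum are drawn wider than they are. The 2 siControl bars with no siAATF bar opposite are the HOXC6 and HOXC9 promoter peak and the peak between HOXB9 and HOXB13.

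The positions of the cluster peaks were nearly the same in both lists. Of 33 siControl peaks 31 overlapped a siAATF peak, 93.9% (79.8% to 99.3%), and all 31 siAATF peaks overlapped a siControl peak (lower bound 88.8%). The 2 siControl peaks without a partner, at HOXC6 and between HOXB9 and HOXB13, had −log10 q of 1.49 and 1.76, in the lowest 5% of their list. With a −log10 q of at least 5 asked of both lists, 76.2% of siControl peaks and 84.2% of siAATF peaks were shared. Where only the siControl peaks had to reach it, 100% of them overlapped a siAATF peak.

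The ranks of the shared HOX promoter peaks differed between the lists in both directions. Over 21 pairs the median change, siAATF minus siControl, was 0.19 points of percentile rank (−11.7 to 6.71), with 10 pairs lower and 11 higher in siAATF. The changes ran from −27.6 points at HOXB3 to 22.3 points at HOXB13, and these 2 pairs (9.52%) were the only ones past 20 points, against 6.71% of 11065 pairs at coding promoters. The median size of the change, either way, was 10.5 points for HOX pairs and 5.23 for all pairs. The HOX peaks were lower and narrower than coding promoter peaks in general. The pairs were not matched for height or width, so these sizes are not compared like for like. After HOXB3, the ranks lower by over 10 points in siAATF were those of HOXA3, HOXA4, HOXD9, HOXC5, HOXA10 and HOXB9, and those higher by over 10 points included the ranks of HOXA11 and HOXB8 besides that of HOXB13. By significance instead, the change in rank had a median of 1.46 points, with 8 pairs lower and 13 higher, from −21.0 to 12.8. With 1 list per condition, none of these changes can be set against a spread between replicates.

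Promoter peaks were also counted at genes for the partners and regulators of HOX genes and at related and neighbouring genes, beside the 61.1% of coding genes in siControl and 60.7% in siAATF. These lists were chosen with earlier results of these data known, so their intervals do not test them against the coding shares. Of 9 genes for TALE cofactors, the PBX, MEIS and PKNOX proteins that bind DNA together with HOX proteins, each list held a promoter peak at 8, or 88.9% (51.8% to 99.7%), and PBX2 had none. PBX4 had the highest rank, 70.8 in siControl and 71.2 in siAATF, and none of the 8 held the core within 1 mismatch. Of 24 genes for chromatin regulators of the HOX clusters, each list held one at 23, or 95.8% (78.9% to 99.9%), and RING1, a Polycomb ubiquitin ligase, had none.

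Among these regulators 8 of the 23 genes with a peak in each list, 34.8% (16.4% to 57.3%), held the core with up to 1 mismatch, against 24.4% and 24.6% of coding genes with a peak. The coding shares of 24.4% and 24.6% lie inside that interval. The control palindrome was held by 2 of the 23 in each list, against 4.07% and 3.92%. The setting of up to 2 mismatches within 100 bp of the midpoint was also applied to the regulators. It matched 6 of the 23 in siControl, 26.1% (10.2% to 48.4%), against 41.2% of coding genes with a peak. In siAATF it matched 10 of the 23, 43.5% (23.2% to 65.5%), against 41.5%. These coding shares also lie inside the intervals. The 8 genes with the core within 1 mismatch were the Polycomb genes CBX2, CBX7, EED, EZH1, EZH2 and PHC2 and the Trithorax-side genes KMT2B and WDR5. CBX2, which encodes a reader of the Polycomb mark, had a −log10 q of 86.8 in siControl and 80.8 in siAATF. EZH2, the methyltransferase that writes that mark, had 69.6 and 68.6. WDR5, a shared subunit of the KMT2 complexes, had 65.9 and 62.5. By fold the ranks in siControl and siAATF were 65.25 and 67.51 for CBX2, 63.78 and 75.87 for EZH2, and 48.97 and 49.61 for WDR5. KMT2A, the methyltransferase best known for keeping HOX genes active, had a peak with −log10 q of only 2.65 and 2.26. By fold, low siControl ranks were those of KMT2A (11.9), BMI1 (9.94), KDM6B (3.86) and PCGF2 (2.46).

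Of 13 ParaHox and related homeobox genes, 5, or 38.5% (13.9% to 68.4%), had a siControl promoter peak and 4, or 30.8% (9.09% to 61.4%), a siAATF promoter peak. EN1, GBX2, GSX2 and MNX1 had a peak in both lists, at ranks of 28.1 to 54.0 in siControl, and CDX1 had a weak peak in siControl alone (rank 6.16). Of the 18 other coding genes within 250 kb of a cluster, 14 (77.8%) had a siControl promoter peak and 13 (72.2%) a siAATF promoter peak, with no peak for the homeobox genes EVX1 and EVX2 that flank HOXA and HOXD. High ranks stood close by, such as CBX5, the heterochromatin protein gene beside HOXC, at 98.6 in siControl and 98.3 in siAATF, and SKAP2, beside HOXA, at 97.9 and 93.4.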

How the data were processed

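NRF-1 ChIPmentation was analysed from 1 MACS2 broadPeak list per condition (siControl, siAATF). The sample labels name U251 and were followed, whereas the design text of the series names U138. Per the labels and the study's methods, the authors aligned reads to hg19 with Bowtie2 and called peaks with MACS2 in a pipeline made for ATAC-seq. No input or IgG library is named for the ChIP-seq peak calling in the sources used here. Duplicates are described, but each label carries replicate 1, and pooling is not stated. The authors deposited peak positions, a display score (not used), a fold enrichment as a ratio, and −log10 p and −log10 q values. Chromosome 1 to 22, X and Y sequence and starts came from GRCh37 with GENCODE release 44. Peaks were joined to starts and ranked with Python 3.11.15, pandas 2.3.3, numpy 2.4.6 and scipy 1.17.1, after a test on simulated data. Median intervals are exact order-statistic intervals and share intervals are Clopper-Pearson. The genes named were 38 of the 39 members, genes of the 4 lists counted, and the strongest of the peaks elsewhere. The members and lists were chosen with earlier results of these data known. Values of 1 member and 1 sequence are not reported here, and counts include that member. Promoter width, start, q, overlap and word settings were varied.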

Additional observations from a re-analysis of the deposited data

How the results depend on the processing

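No paired analysis was possible because each condition had 1 list. Of 79 alternative values for 16 results, 54 stayed within 1.5 times a count or inside the interval of the reported value and 25 did not. With the 10000 strongest peaks of each list, 10 HOX genes in siControl, 8 in siAATF and 7 in both had a promoter peak, with 10 and 8 distinct promoter peaks, and the median rank became 62.4 and 72.1. That rise follows from keeping only stronger peaks. With a −log10 q of 5 or more asked of both lists, 13 HOX genes in siAATF and 10 in both had a promoter peak, from 14 and 13 distinct promoter peaks, with 7 and 6 peaks elsewhere, and 76.2% of siControl and 84.2% of siAATF cluster peaks were shared. Asked of the query list alone, 100% of siControl peaks were shared. A reciprocal overlap of 50% left 87.1% of siAATF peaks shared. A 2 kb promoter left 7 and 6 peaks elsewhere, since some then counted as promoter peaks. The exact core was found at 0 HOX genes in each list, the core at 0 in each where the whole word had to lie within 100 bp of the midpoint, and the core with up to 2 mismatches placed likewise, chosen after the data were seen, at 8 and 11. The median rank change became −0.28 points with a 500 bp promoter and 3.04 with the canonical start alone. It became 4.93 with a −log10 q of 5 or more asked of both lists, and 1.46 when ranked by −log10 q. The 6 values planned without read-through genes were not run, as 0 members were read-through genes. Depth was unknown, so a missing peak cannot be told from a peak below the caller's threshold.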
